A study of Mus musculus with 8 samples.

Results

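The 33 genes described here encode ribosome biogenesis factors, the proteins that make, modify and cut ribosomal RNA and assemble it with ribosomal proteins into the small and large ribosomal subunits. They form a list of genes named for this function, and all 33 were measured among the 18193 genes that had a probe set annotated to a single symbol. Each gene was read from its brightest such probe set, the one with the highest mean over all 8 arrays. RNA came from bone marrow cells carrying Cd11b, the integrin alpha M chain of myeloid cells, which were sorted with a FITC-labelled antibody from mice 8 weeks old of mixed FVB and C57BL6 background. The control group was E2F1-/-2+/+3f/f (n = 4) and the experimental group was Mxcre;E2F1-/-2-/-3f/f (n = 4). Every mouse therefore lacked E2F1 and carried the floxed allele of E2F3, while the experimental mice also lacked E2F2 and alone carried the Cre recombinase. The comparison asks what differs in myeloid cells between these genotypes. Loss of E2F2, the presence of Cre and any loss of E2F3 coincide with the group and cannot be told apart. Both groups received 5 injections of 250 µg pIpC, a synthetic RNA duplex and interferon inducer, every other day and were killed 24 h after the last one. Mx-driven Cre responds to interferon and acts in many blood and non-blood cells, so it is not restricted to the sorted population. The labels do not say whether each array came from a separate animal, so each p-value rests on sample-to-sample spread, part of which may be technical.

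Ribosome production starts in the nucleolus, where RNA polymerase I transcribes one long precursor of the ribosomal RNAs. Small nucleolar RNPs of the box C/D and box H/ACA classes modify this precursor, the former by ribose methylation and the latter by pseudouridylation, and large protein assemblies cleave and fold it along separate small-subunit and large-subunit paths. Many of these genes are known targets of Myc, and their expression is high in growing and dividing cells, which in the myeloid lineage of the marrow are the early precursors and not the mature neutrophils.

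Promoter sequence was compared for the genes that had an entry in the RefSeq promoter table used (28 of 33, mouse build GRCm38.p6), taking the 250 bases before the annotated start. Rrp12, Rrs1, Bop1, Npm1 and Fbl had no promoter entry and were not searched. The Myc-type E-box CACGTG was present in 1 of the 28 genes (3.57%), Nop2, against 6.86% of the 27025 genes in the table. E2F-type heptamers (TTCCCGC and also TTCGCGC, as well as TTGCCGC and likewise TTGGCGC, on either strand) were present in 7 of the 28 (25%), namely Ddx21, Ncl, Nhp2, Noc3l, Nolc1, Nop58 and Tsr1, against 9.01% of all genes. The median GC content of the windows was 59.2% for the ribosome biogenesis genes and 52.4% for all. These matches are descriptions of the letters in the windows, not of bound sites. These windows are shown, 5′ to 3′ along the gene, because they carry the motif in genes whose values are given in detail below or, for Nop2, the single E-box. Capitals mark the motif, which starts 174 bases before the start of Nhp2, 80 before Tsr1, 224 before Ncl, 133 and 116 before Nolc1, and 60 before Nop2.
Nhp2, chr11:51619523-51619772, + strand: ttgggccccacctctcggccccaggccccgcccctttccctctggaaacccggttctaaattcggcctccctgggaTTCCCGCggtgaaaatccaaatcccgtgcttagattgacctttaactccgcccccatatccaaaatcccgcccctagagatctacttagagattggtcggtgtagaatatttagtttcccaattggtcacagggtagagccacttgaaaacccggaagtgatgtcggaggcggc
Tsr1, chr11:74897830-74898079, + strand: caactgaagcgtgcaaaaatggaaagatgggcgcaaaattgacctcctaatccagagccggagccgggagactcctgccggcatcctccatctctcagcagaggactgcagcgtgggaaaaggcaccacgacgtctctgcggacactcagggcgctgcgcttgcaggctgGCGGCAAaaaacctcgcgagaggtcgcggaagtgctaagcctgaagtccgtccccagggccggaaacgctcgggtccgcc
Ncl, chr1:86359456-86359705, - strand: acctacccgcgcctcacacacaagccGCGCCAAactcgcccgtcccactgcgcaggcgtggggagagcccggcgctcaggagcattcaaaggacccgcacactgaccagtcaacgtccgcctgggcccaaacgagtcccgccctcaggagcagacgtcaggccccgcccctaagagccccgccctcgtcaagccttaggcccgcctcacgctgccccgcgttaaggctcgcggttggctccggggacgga
Nolc1, chr19:46075597-46075846, + strand: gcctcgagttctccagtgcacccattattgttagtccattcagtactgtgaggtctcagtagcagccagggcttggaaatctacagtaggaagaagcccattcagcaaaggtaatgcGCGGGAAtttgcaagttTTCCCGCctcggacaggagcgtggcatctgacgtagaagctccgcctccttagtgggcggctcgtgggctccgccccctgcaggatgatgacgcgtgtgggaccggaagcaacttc
Nop2, chr6:125131633-125131882, + strand: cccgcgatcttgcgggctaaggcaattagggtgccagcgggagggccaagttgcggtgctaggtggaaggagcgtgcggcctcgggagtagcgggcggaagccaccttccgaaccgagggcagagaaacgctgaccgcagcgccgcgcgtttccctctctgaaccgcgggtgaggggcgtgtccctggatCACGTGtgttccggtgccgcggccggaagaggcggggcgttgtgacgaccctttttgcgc

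The arrays were similar in overall scale, with medians of 5.01 to 5.04 on the log2 scale, and the lowest correlation between any pair of arrays was 0.982. Deletion of the targeted genes could be checked only in part, because the labels do not place the probe sets relative to the deleted exons: E2f2 was 9.54, 9.77, 9.90 and 10.20 in the controls and 9.18, 9.53, 9.08 and 9.44 in the experimental samples (-0.55 ± 0.16 SE, limma adjusted p = 0.107). E2f1, deleted in both groups by genotype, was 6.71, 6.73, 7.03 and 6.97 in the controls and 7.27, 6.81, 7.61 and 8.08 in the experimental samples (0.58 ± 0.23, adjusted p = 0.236, and 0.0499 without experimental replicate 2). E2f3 was 7.65, 7.43, 7.63 and 7.67 in the controls and 7.88, 8.07, 7.69 and 7.90 in the experimental samples. Its signal was thus higher in the experimental group, with no overlap (0.29 ± 0.11, adjusted p = 0.201), and loss of E2F3 was not seen in these values. The sort marker Itgam lay between 11.50 and 11.66 in the controls and between 11.25 and 11.90 in the experimental samples. Over a list of 10 myeloid identity genes, Itgam among them, the mean level was 13.13 to 13.27 in the controls and 12.93 to 13.05 in the experimental samples. None of the 10 had a difference above 0, with a median of -0.08, and 1 passed as lower (Csf3r, -0.65 ± 0.09, limma adjusted p = 0.00943). The arrays carry sample codes of 2 styles in the labels, a digit then a letter for replicates 1 and 2 and a letter then a digit for replicates 3 and 4, and each style holds 2 control and 2 experimental arrays. The labels do not say what the styles stand for.

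No ribosome biogenesis gene passed the test between the groups over all 8 arrays (limma, Benjamini-Hochberg adjustment over 45037 probe sets, 0 of 33 at an adjusted p under 0.05, adjusted p from 0.122 to 0.944). In the same fit 3.47% of all genes passed, 1.53% as higher and 1.95% as lower in the experimental group. The averages nevertheless lay on one side: 31 of 33 genes had a higher experimental mean, with a median difference of 0.39 (1.31-fold), against a median of 0.01 over all genes, of which 9631 of 18193 were above 0. The list was chosen with earlier results of these data known, so this count is not independent evidence. Differences ran from -0.14 for Ebna1bp2 to 0.92 for Rrp12. At an unadjusted p under 0.05 there were 6 genes, all of them higher (Rrs1, Wdr12, Tsr1, Nhp2, Rrp12 and Pes1), where 9.08% of all genes were higher at that level. In sorted bulk cells, more cells of a type and more RNA per cell cannot be told apart.

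**Figure D1:**
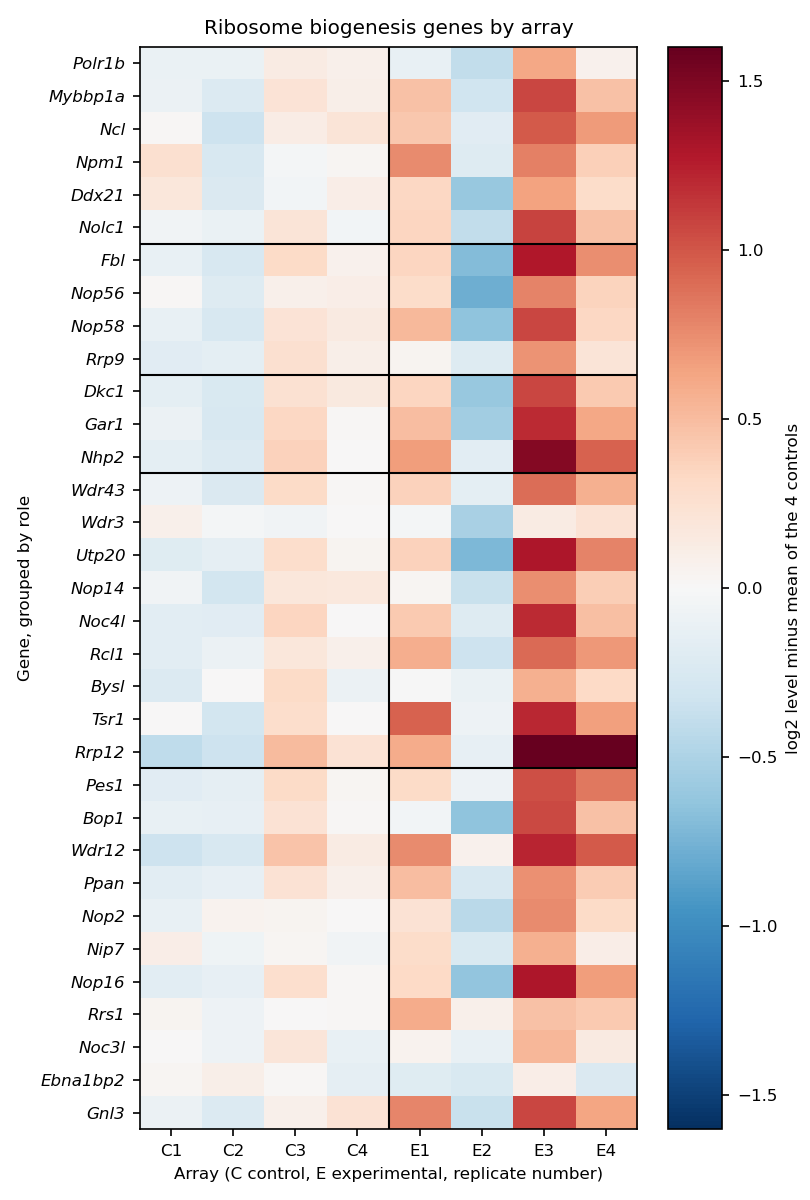
Level of each ribosome biogenesis gene in each of the 8 arrays, as log2 signal minus that gene's control mean, with genes in rows grouped by role and arrays in columns. Experimental replicate 3 lies above the control mean in 33 of 33 genes, whereas experimental replicate 2 does so in 2.

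The experimental arrays did not behave alike for these genes. Averaged over the 33 genes and relative to the control mean, the experimental arrays stood at 0.36, -0.34, 0.91 and 0.50 for replicates 1 to 4, and the controls at -0.09, -0.17, 0.20 and 0.05. Experimental replicate 2 was the lowest experimental array in 33 of 33 genes, against 27.1% of all genes, and the lowest of all 8 arrays in 23 (69.7%), against 15.3%. Experimental replicate 3 was the highest of all 8 in 31 (93.9%), against 15.3%. The other experimental arrays, replicates 1, 3 and 4, were all above every control in 24 genes (72.7%, against 9.75% of all genes), while all 4 experimental arrays were above every control in 1, Rrs1 (3.03%, against 5.62%). The SD between experimental samples had a median of 0.54 over the ribosome biogenesis genes and 0.18 over all genes, and exceeded the control SD in 33 of 33, against 66.3% of all genes (medians of 0.21 and 0.14 in the controls).

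The calls depended on how this array was handled. Without experimental replicate 2, 6 genes were higher at an adjusted p under 0.05 (Nhp2, Rcl1, Tsr1, Wdr12, Rrs1 and Gnl3) against 2.51% of all genes, and the median difference was 0.63 (1.55-fold) with 32 of 33 above 0. That array was singled out because these same values were lowest in it, so calls made without it are not independent support. Leaving out any other single array gave no calls among the 33. Without experimental replicate 3 no gene passed, against 2.49% of all genes, and the median was 0.14, with 28 above 0. Arrays that shared a number shifted in the same direction across the groups, as did other arrays of one code style, and with the replicate number as a block 3 genes were higher (Tsr1, Rrp12 and Wdr12), against 3.16% of all genes. With the code style as the block 2 were higher (Rrp12 and Wdr12), against 3.57% of all genes.

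Replicates 1 and 2 and replicates 3 and 4 were then examined apart. Among replicates 1 and 2 the median difference was 0.09 (1.06-fold), 24 of 33 genes were above 0, none passed (against 0.418% of all genes), and both experimental arrays were above both controls in 4 genes (12.1%, against 26% of all genes). Among replicates 3 and 4 the median was 0.59 (1.51-fold), 33 of 33 were above 0 (Ebna1bp2 at 0.00 after rounding), 1 passed (Rrp12, against 0.852% of all genes higher), and both experimental arrays were above both controls in 29 (87.9%, against 25.8%). The test of the difference between the code styles called none of the 33 (adjusted p from 0.597 to 0.962, with 0.011% of all genes called). At an unadjusted p under 0.05 it called 1, against 8.06% of all genes. All 33 differences were larger in replicates 3 and 4, by 0.07 to 0.89. So were those of 117 of 128 other ribosome biogenesis genes, described below, and of 49.6% of all genes. These counts are not independent evidence. Experimental replicate 2 was the lowest experimental array in all 33 genes and experimental replicate 3 the highest in 31, so the 33 signs are not separate observations. Across the groups, replicates 3 and 4 also stood above replicates 1 and 2 in 33 of 33 genes, by a median of 0.48. The same held for 118 of the 128 other genes and 56.9% of all genes. Of the 33, 1 passed (Rrp12, 1.05, adjusted p = 0.0352, against 1.41% of all genes higher). Counted by numbered pair, the experimental sample was higher in 30 genes for pair 1, 9 for pair 2, 33 for pair 3 and 31 for pair 4. Over all genes the shares were 50.4%, 52.6%, 44.1% and 56.9% for pairs 1 to 4. No label says that arrays sharing a number are matched.

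**Figure D2:**
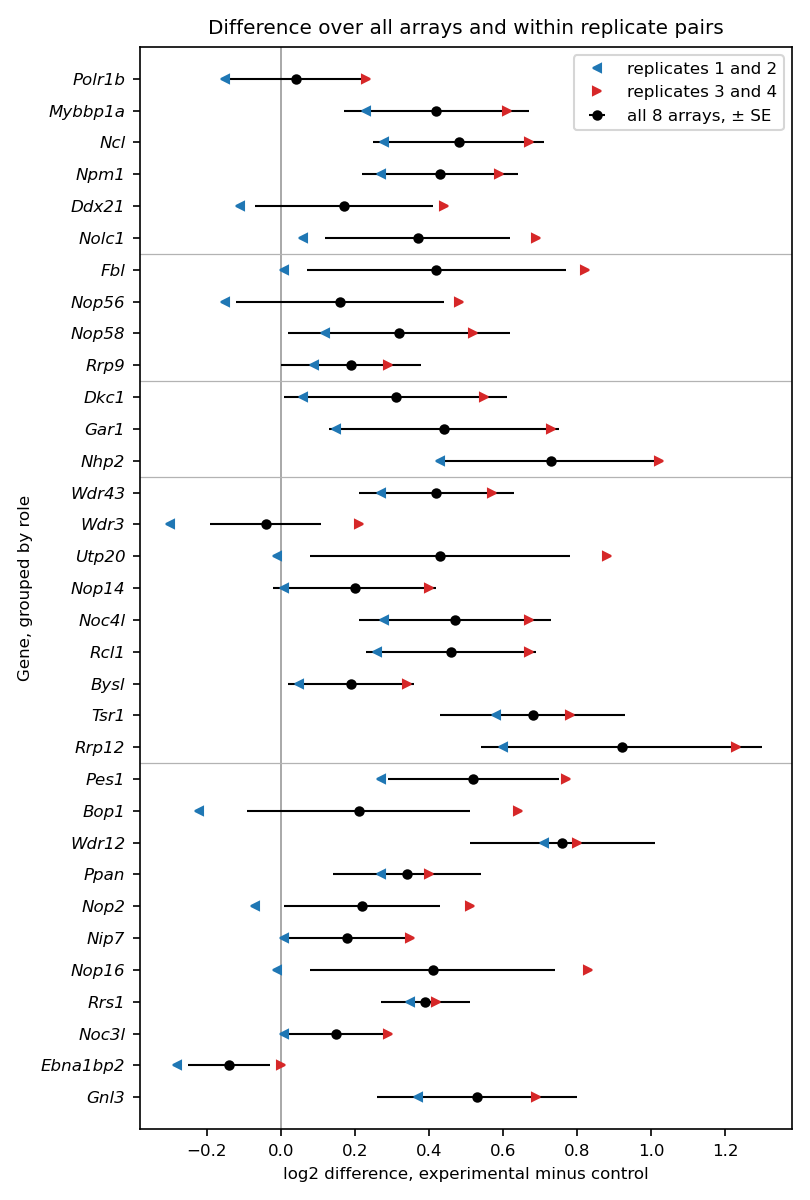
Difference between experimental and control means for each gene on the log2 scale, with its standard error, over all 8 arrays and within each pair of replicates. The estimates from replicates 3 and 4 lie above those from replicates 1 and 2 for every gene.

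The genes Polr1b, Mybbp1a, Ncl, Npm1, Ddx21 and Nolc1 act in RNA polymerase I transcription or nucleolar organisation, and all 6 had a higher experimental mean (median 0.40; 0.15 in replicates 1 and 2 and 0.60 in replicates 3 and 4). Ncl, nucleolin, an abundant nucleolar RNA-binding protein, was 10.58, 10.24, 10.68 and 10.77 in the controls and ran from 10.39 in replicate 2 to 11.55 in replicate 3 of the experimental samples. Experimental replicate 2 fell within the control range and the other experimental arrays were above it, and the difference was 0.48 ± 0.23 (adjusted p = 0.321; 0.0528 without experimental replicate 2). The further Ncl probe sets differed by 0.31, 0.41, 0.02 and -0.05 (± 0.20 for the last), so the last alone was below 0, by less than its SE. Npm1, nucleophosmin, a nucleolar chaperone, gave 11.06, 10.54, 10.77 and 10.83 against 11.55, 10.60, 11.61 and 11.18 (0.43 ± 0.21, adjusted p = 0.345). Mybbp1a, a nucleolar protein that binds Myb, gave 8.43, 8.30, 8.73 and 8.61 against 8.99, 8.20, 9.58 and 8.99 (0.42 ± 0.25, adjusted p = 0.426). For both, experimental replicate 2 was within or below the control range. Nolc1, a chaperone of small nucleolar RNPs, differed by 0.37 ± 0.25 and Ddx21, an RNA helicase, by 0.17 ± 0.24. Polr1b, a large catalytic subunit of RNA polymerase I, was the closest to 0 (0.04 ± 0.19, adjusted p = 0.944), with controls at 6.36, 6.36, 6.60 and 6.54 and experimental samples at 6.35, 6.07, 7.08 and 6.53, so that the experimental values lay on both sides of the control range.

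The box C/D factors Fbl, Nop56, Nop58 and Rrp9 had a median difference of 0.25, and the box H/ACA factors Dkc1, Gar1 and Nhp2 one of 0.44. Fbl, fibrillarin, the ribose methyltransferase, was 9.54, 9.39, 9.96 and 9.72 in the controls and 9.99, 8.96, 10.93 and 10.39 in the experimental samples (0.42 ± 0.35, adjusted p = 0.602). Its experimental values spanned the whole control range, with replicate 2 below every control. The core proteins Nop56 (0.16 ± 0.28) and Nop58 (0.32 ± 0.30) and Rrp9, a protein of the U3 snoRNP, (0.19 ± 0.19) likewise had replicate 2 as the lowest and replicate 3 as the highest of the experimental arrays. Nhp2, a core protein of the pseudouridylation complex, was 8.98, 8.93, 9.51 and 9.15 in the controls and 9.81, 8.97, 10.61 and 10.09 in the experimental samples. Experimental replicates 1, 3 and 4 were above every control and replicate 2 was among the controls, giving 0.73 ± 0.30 (1.66-fold, adjusted p = 0.249; 1.03 and 0.0308 without experimental replicate 2). Dkc1, dyskerin, the pseudouridine synthase itself, differed by 0.31 ± 0.30 and Gar1 by 0.44 ± 0.31.

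Of the 9 small-subunit factors, 8 had a higher experimental mean (median 0.43). Tsr1, a late maturation factor of the small subunit, was 7.08, 6.79, 7.36 and 7.09 in the controls and 8.03, 7.00, 8.29 and 7.73 in the experimental samples. Replicates 1, 3 and 4 exceeded every control, and the difference of 0.68 ± 0.25 (1.6-fold) had an adjusted p of 0.197, of 0.0229 without experimental replicate 2 and of 0.0372 with the replicate block. The further Tsr1 probe set differed by 0.46 ± 0.23 (limma adjusted p = 0.351, with 0.0791 without experimental replicate 2 and 0.118 with the replicate block). Rrp12, an export and maturation factor, was 4.91, 4.99, 5.82 and 5.55 against 5.91, 5.19, 6.92 and 6.92. It was the dimmest of the 33 genes (mean level 5.77), and control replicates 1 and 2 lay below the array medians of 5.01 to 5.04. A filter on mean levels of at least 6 left Rrp12 out. Both groups were low in replicates 1 and 2 compared with 3 and 4, and the experimental sample was higher within each number: 0.92 ± 0.38 (1.89-fold), adjusted p = 0.256, or 0.0323 with the replicate block. Rcl1, an endonuclease-like factor of early cleavage, gave 6.25, 6.33, 6.60 and 6.50 against 7.00, 6.09, 7.32 and 7.11 (0.46 ± 0.23, adjusted p = 0.359; 0.73 and 0.0214 without experimental replicate 2). Noc4l (0.47), Utp20 (0.43), Wdr43 (0.42), Nop14 (0.20) and Bysl (0.19), which belong to the early or late small-subunit assemblies, did not pass in the settings named above by their brightest probe sets. Wdr3 was the exception in sign, with controls of 8.52, 8.40, 8.38 and 8.44 and experimental values of 8.40, 7.92, 8.57 and 8.67 (-0.04 ± 0.15, adjusted p = 0.922), and was 0.11 without experimental replicate 2.

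Large-subunit factors were higher on average in 10 of 11 (median 0.34; 0.01 in replicates 1 and 2 and 0.51 in replicates 3 and 4). Wdr12, Pes1 and Bop1 form the PeBoW complex, which is required for processing of the large-subunit RNA. Wdr12 was 6.38, 6.45, 7.16 and 6.84 in the controls and 7.47, 6.78, 7.93 and 7.69 in the experimental samples. The experimental sample was higher within every number, though replicate 2 overlapped the controls, and the difference was 0.76 ± 0.25 (1.69-fold, adjusted p = 0.158; 0.0329 without experimental replicate 2 and 0.0232 with the replicate block). Pes1 differed by 0.52 ± 0.23 (adjusted p = 0.291). Bop1 was 7.87, 7.86, 8.22 and 8.01 against 7.94, 7.35, 9.05 and 8.46 (0.21 ± 0.30, adjusted p = 0.78), with -0.22 in replicates 1 and 2 and 0.64 in replicates 3 and 4.

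Rrs1, an assembly factor that acts in large-subunit assembly, was the one gene whose groups did not overlap: 8.39, 8.27, 8.36 and 8.37 in the controls against 8.94, 8.43, 8.81 and 8.77 in the experimental samples. The controls varied little (SD 0.05), and the difference of 0.39 ± 0.12 (1.31-fold) had the lowest adjusted p of the 33, 0.122 (0.0277 without experimental replicate 2, 0.0727 with the replicate block). The further Rrs1 probe set differed by 0.39 ± 0.25 (limma adjusted p = 0.478, with 0.164 without experimental replicate 2 and 0.114 with the replicate block). Gnl3, nucleostemin, a nucleolar GTPase of proliferating cells, was 7.53, 7.40, 7.71 and 7.86 against 8.41, 7.27, 8.69 and 8.26. Replicate 2 was below every control here and the others were above, with 0.53 ± 0.27 and an adjusted p of 0.353 (0.83 and 0.0227 without experimental replicate 2). Nop16 (0.41), Ppan (0.34), Nop2 (0.22), Nip7 (0.18) and Noc3l (0.15) did not pass in the settings named above. Ebna1bp2, which acts early in large-subunit assembly, was the lowest of all, with controls of 8.89, 8.95, 8.88 and 8.71 and experimental values of 8.66, 8.62, 8.96 and 8.63 (-0.14 ± 0.11, adjusted p = 0.562).

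**Figure D3:**
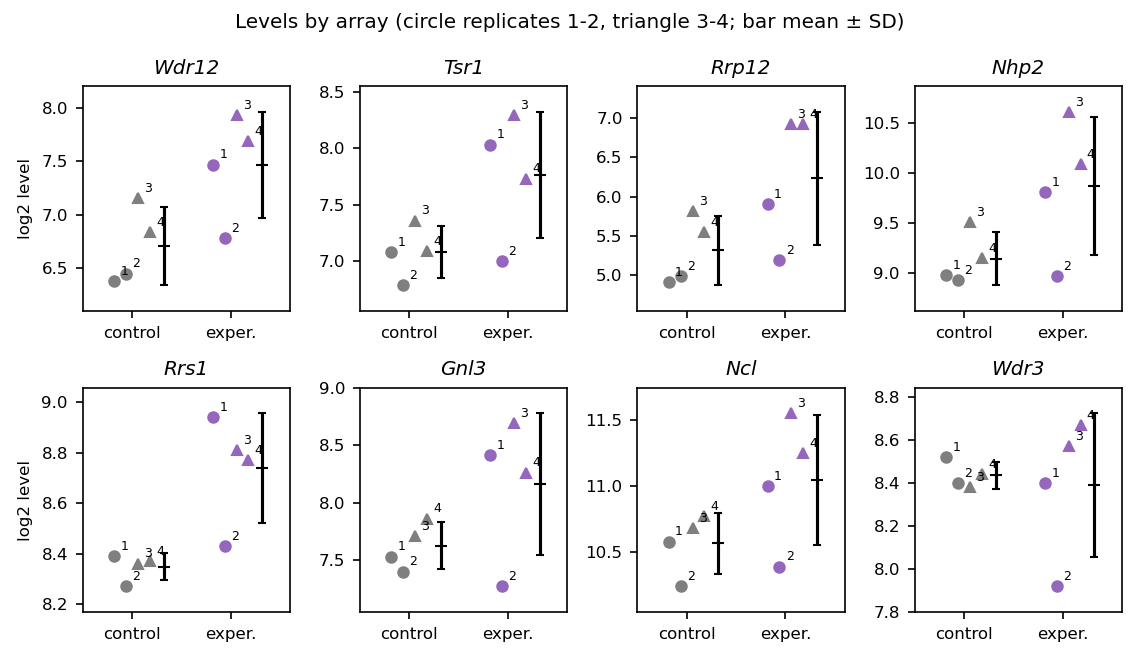
Log2 signal of 8 ribosome biogenesis genes in each control and experimental sample, with the group mean and SD. In Rrs1 the 4 experimental points lie above the 4 controls, while in the other 7 the groups overlap.

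More than 1 probe set was annotated to 21 of the 33 genes. Of the 30 further probe sets, 21 differed upward and none passed, either over all arrays or with the replicate block. Without experimental replicate 2, 5 of them passed, in Ncl, Npm1, Nhp2 and Noc4l (adjusted p from 0.0311 to 0.0411). Rrs1, Tsr1 and Wdr12 passed there by their brightest probe set alone. Over all arrays 7 genes had probe sets of opposite sign (Ncl, Nolc1, Bysl, Pes1, Bop1, Nip7 and Nop16). In Pes1, Bop1, Nip7 and Nop16 the probe set below 0 was dim, with mean levels of 4.68, 4.52, 5.35 and 4.50. In Ncl, Nolc1 and Bysl it differed by -0.05 ± 0.20, -0.02 ± 0.27 and -0.07 ± 0.17. With the mean of each gene's probe sets the median difference was 0.26, with 31 above 0.

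The wider pathway showed a smaller difference, though both lists were chosen with earlier results of these data known. Of 131 other ribosome biogenesis genes listed, 128 were measured; 0 passed in either direction in limma (6 higher and 5 lower at an unadjusted p under 0.05), 87 were above 0 and the median difference was 0.08. The sign of this median turned on 1 array: it was -0.04 with 50 above 0 without experimental replicate 3 and 0.20 with 103 above 0 without experimental replicate 2, and it was -0.09 in replicates 1 and 2. By class, the medians were -0.05 for 14 RNA polymerase I genes, 0.09 for 41 small-subunit genes, 0.09 for 50 large-subunit genes and 0.10 for 23 snoRNP and processing genes. The arrays kept the same order, at -0.01, -0.32, 0.46 and 0.20 for experimental replicates 1 to 4. With the replicate block Utp4, a small-subunit processome protein, was higher (0.60 ± 0.10, adjusted p = 0.0189) and Zfp593, a large-subunit export factor, was lower (-0.41 ± 0.09, adjusted p = 0.0419). Myc, a known activator of these genes, was 7.64, 7.72, 8.03 and 8.37 in the controls and 8.24, 7.28, 8.58 and 8.21 in the experimental samples (0.14 ± 0.26, adjusted p = 0.84), and its experimental replicate 2 was again the lowest of the 8 arrays. Of 12 Myc network genes, 1 passed: Mxd3, a repressor partner in the network, ranged from 7.24 to 7.39 in the controls and from 5.81 to 6.28 in the experimental samples (-1.27 ± 0.11, adjusted p = 0.00176), so that the groups were well apart.

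**Figure D4:**
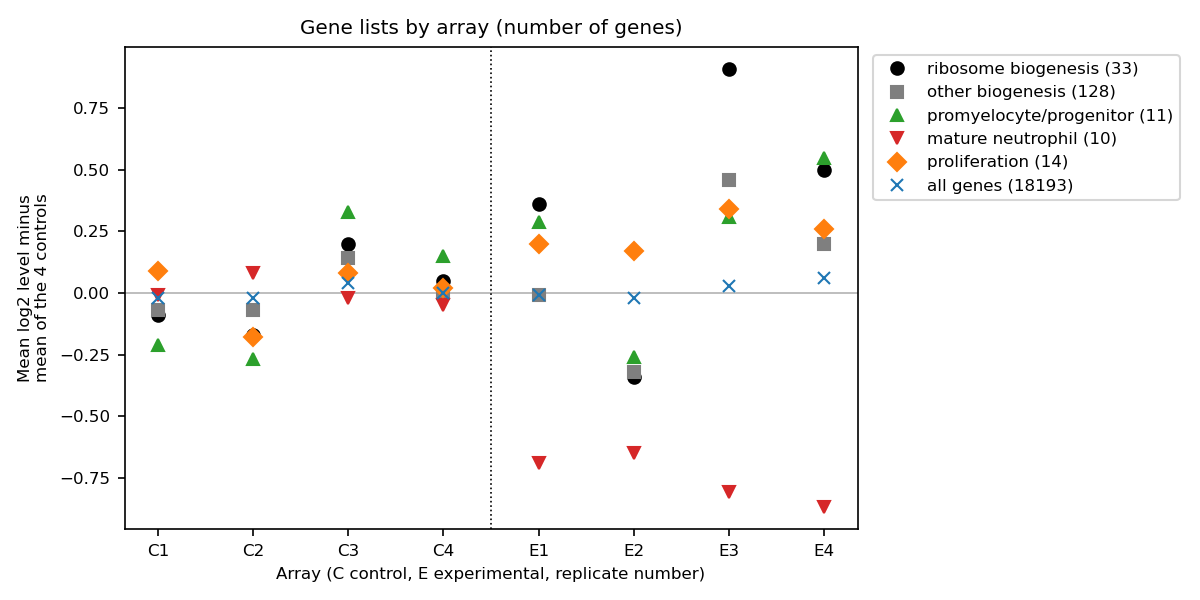
Mean log2 level of each gene list in each array, relative to the control mean, for the ribosome biogenesis genes, the other genes of the pathway, the promyelocyte, mature neutrophil and proliferation lists, and all genes. The ribosome biogenesis genes run from -0.34 in experimental replicate 2 to 0.91 in experimental replicate 3.

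Other marker lists also differed between the groups or among the arrays. The promyelocyte and progenitor list stood at 0.29, -0.26, 0.31 and 0.55 in experimental replicates 1 to 4 and at -0.21, -0.27, 0.33 and 0.15 in the controls, so that replicate 2 was the lowest experimental array there too. Of its 11 genes 1 rose, Ms4a3 (0.83 ± 0.16, adjusted p = 0.0298; 0.0743 to 0.0938 when control replicate 1, 2 or 4 was left out, or experimental replicate 1 or 4). Mpo, myeloperoxidase of promyelocytes, was 12.44, 12.66, 13.39 and 13.20 in the controls and 13.30, 12.67, 13.40 and 13.39 in the experimental samples. The mature neutrophil list was lower in every experimental array (-0.69, -0.65, -0.81 and -0.87), and 5 of its 10 genes fell. In the proliferation list 6 of 14 genes rose, among them Mcm2 (0.98 ± 0.10, adjusted p = 0.00258), and 2 fell, and its mean was 0.20, 0.17, 0.34 and 0.26 in the experimental arrays. As mean log2 levels over each list, B cell genes ranged from 7.04 to 7.96 in the controls and 6.01 to 6.56 in the experimental samples (5 of 9 fell), T and NK cell genes from 6.18 to 7.14 and 6.46 to 7.23 (0 of 9 passed), erythroid genes from 8.42 to 8.74 and 8.39 to 9.69 (0 of 7), megakaryocyte genes from 6.94 to 7.50 and 6.25 to 6.49 (2 of 6 fell), and dendritic cell genes from 8.12 to 8.87 and 7.31 to 7.81 (3 of 8 fell). With the replicate block the calls were 2 higher for the promyelocyte and progenitor list, 2 higher for T and NK cell genes, 1 higher for erythroid genes, and 6, 3 and 5 lower for B cell, megakaryocyte and dendritic cell genes. Without experimental replicate 2 they were again 2 higher for the promyelocyte and progenitor list and 2 higher for T and NK cell genes. The log2 ratio of 3′ to 5′ beta-actin signal was 0.27, 0.32, 0.29 and 0.31 in the controls and 0.43, 0.34, 0.46 and 0.54 in the experimental samples (difference 0.14, two-sided exact permutation p = 0.0286, the smallest that 4 against 4 can give), and experimental replicate 2 was again the lowest of its group. The Gapdh ratio differed by only 0.03 (exact permutation p = 0.743). Its lowest experimental value was in replicate 1 (-0.16), with -0.14 in replicate 2. The part of cell composition, RNA quality and code style in the differences of the ribosome biogenesis genes was not tested.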

How the data were processed

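Expression was measured on Affymetrix mouse arrays, 1 per sample, from 2.5 µg of total RNA labelled as biotin cRNA. The deposited values are log2 signals per probe set made by the authors with RMA, per the submitters' processing notes; the version and whether all arrays were normalized together are not given in the sources used here. RMA sets all arrays it treats to one distribution, which removes shifts in overall level, and the number of arrays limits the precision. The table held 45101 probe sets; 64 controls were left out and 45037 tested. Gene symbols came from the platform annotation: 34945 probe sets had 1 symbol, 932 several and 9160 none.

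Differences are experimental minus control, fitted by group alone with lmFit and eBayes of limma 3.58.1 (R 4.3.3); p-values were adjusted by Benjamini-Hochberg across every probe set in the test, and 0.05 was the threshold. Errors are SE for differences and SD for groups. On simulated data of 4 against 4 arrays with 45037 probe sets, 31.3% of 1.5-fold, 64.2% of 2-fold and 93.9% of 4-fold changes were recovered. Of the calls, 8.7% were false. The simulated noise was independent between probe sets and equal in both groups. The ribosome biogenesis genes had a median SD of 0.54 in the experimental group and 0.21 in the controls, so these rates may not hold for them. Replicate numbers come from the sample titles; deviations of same-numbered control and experimental arrays correlated at 0.20 to 0.26 in each of the 4 pairs, differently numbered arrays of one code style at 0.14 to 0.26, and arrays of different styles at -0.27 to -0.14. The correlation thus did not separate the number from the code style, and no label ties a number to a litter or batch; since every same-numbered pair was above 0.1, a fit with the number as a block was run. Alternatives were leaving out each array, blocks for replicate and code style, each code style alone, array weights, other scalings, filters, prior variances and other probe set rules.

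The named genes are all 33 ribosome biogenesis genes, up to 4 genes past the threshold from each list of other pathway genes, plus Myc, and E2f1, E2f2 and E2f3 as a check of the labels; from the marker lists, fewer genes were named than the rule allowed. The 33 genes were listed by function and not by a threshold on measured values, but they and all other lists were chosen with earlier results of these data known. Motifs were searched in RefSeq promoter windows with Python 3.11.15.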

Additional observations from a re-analysis of the deposited data

Results flagged for a closer look

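Within the groups of 4 arrays, an array was singled out when its gap to the nearest other array exceeded Dixon's critical value, which chance does in about 5% of groups. Of 66 groups of the ribosome biogenesis genes, 2 were singled out. Nolc1 was 8.20 in control replicate 3, with the other controls between 7.89 and 7.95. Ebna1bp2 was 8.96 in experimental replicate 3, with the other experimental samples between 8.62 and 8.66. Among the other genes examined, Mpo was 12.67 in experimental replicate 2, with the others between 13.30 and 13.40. The dendritic cell marker Ccr9 was 4.39 in experimental replicate 2, with the others between 5.21 and 5.31. E2f3 was 7.43 in control replicate 2, with the other controls between 7.63 and 7.67.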

How the results depend on the processing

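Of 692 values for single ribosome biogenesis genes under the alternatives, 666 kept their direction and side of the threshold, 12 passed the threshold where the 8-array fit did not, and 14 changed sign. The count of ribosome biogenesis genes called higher was 0 over all arrays, 3 with the replicate block, 2 with the code style as a block (Rrp12 and Wdr12), 1 in replicates 3 and 4 alone, and 0 to 6 on leaving out 1 array. Among the other ribosome biogenesis genes, the count called higher was 1 with the replicate block, 1 with the code style block and 0 to 1 on leaving out 1 array; the count called lower was 1, 1 and 0 to 1 in the same settings, and 2 when probe sets of a gene were averaged. The count of all probe sets past the threshold was 1162, and 2277 with the replicate block, 2582 with the code style block, 130 in replicates 1 and 2, 418 in replicates 3 and 4, and 395 to 1744 on leaving out 1 array; the smaller subsets hold fewer arrays. Signs changed in replicates 1 and 2 alone for Polr1b (-0.15), Ddx21 (-0.11), Nop56 (-0.15), Utp20 (-0.01), Bop1 (-0.22), Nop2 (-0.07) and Nop16 (-0.01), in replicates 3 and 4 alone for Wdr3 (0.21) and Ebna1bp2 (0.00), with array weights for Wdr3 (0.00), without experimental replicate 3 for Polr1b (leave-out range -0.15 to 0.19), Nop56 (-0.05 to 0.48), Bop1 (-0.07 to 0.50) and Myc (-0.03 to 0.41), and without experimental replicate 2 for Wdr3 (-0.14 to 0.11). The cause was not tested. Over the ribosome biogenesis genes, the replicate block changed no calls beyond those of Tsr1, Rrp12 and Wdr12. With 4 arrays in a group, changes of 1.5-fold were often missed in simulated data.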
